A study of Mus musculus with 4 samples.

Results

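Mitochondrial ribosomal proteins were represented by 85 probe sets of 77 genes, out of 21640 probe sets with a single gene symbol (19937 genes) and 34760 probe sets in all. A member was any probe set whose only symbol begins with Mrpl or Mrps followed by a number. Symbols marked as pseudogenes were left out. The values came from 4 arrays of B220+ c-Kit+ bone marrow cells, the pro-B stage, of wild-type C57BL/6 mice, the only group, labelled replicates 1 to 4. The mice carried no transgene, their age and sex are not stated in the labels, and whether each array stands for a separate mouse is not stated there either. The arrays are therefore described one against another, since no comparison between conditions can be made. Mrpl53, whose probe set also carries the symbol Ccdc142, was not a member.

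The mitoribosome translates the few messenger RNAs of the mitochondrial genome, all of which code for subunits of the respiratory chain and ATP synthase. Its RNA is made inside the organelle, whereas every protein of its large and small subunit is encoded in the nucleus, made on cytosolic ribosomes and imported. Some of these proteins descend from those of the bacterial ribosome, and others are found only in mitochondria. Proliferating B-cell precursors need respiratory chain subunits whenever they enlarge their mitochondrial mass. By subunit, 55 probe sets (50 genes) belonged to the large subunit, among them Mrps18a and Mrps30, which are large-subunit proteins despite their names. A further 28 probe sets (26 genes) belonged to the small subunit. The other 2 belonged to Mrps36, now known as a component of the 2-oxoglutarate dehydrogenase complex.

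The promoters of these genes shared short sequence features that the choice of members did not use. RefSeq promoter windows, from 250 bases before to 50 after an annotated start in mouse build GRCm38.p6, were given for 68 of the 77 genes, in 74 windows. On either strand, the ETS motif CCGGAAG, which GABP and other ETS factors bind, stood in 25 of the 74 windows (33.8%), against 8.86% of 32851 windows of all genes and 12.1% of the windows of genes on the array. The YY1 motif AAGATGGCG stood in 10.8% of the member windows, against 1.4% of all windows and 1.94% of those of genes on the array. For the NRF1 motif GCGCATGCG the shares were 9.46%, 1.75% and 2.55%. The E-box CACGTG, a site of MYC and USF factors, was in 9.46% of member windows and 7.15% of all windows. Counted by gene, the E-box shares were 7.35% (5 of 68) and 8.09%, as several windows of Mrpl2 held a match. No ETS match overlapped a YY1 match in the member windows. At least 1 of the NRF1, ETS and YY1 motifs was found for 35 of the 68 genes. The ETS share was 32.2% in promoters of cytosolic ribosomal protein genes and 23.9% in those of oxidative phosphorylation genes, while YY1 was found in 1.69% and 9.86% of these windows. Member windows had a median GC content of 58.5%, against 52.7% for all windows and 57.7% for genes on the array. Their median count of CG pairs, which each of these motifs contains, was 21, against 7 and 15. The part of base composition in the motif shares was not tested. A match of letters is a description and no evidence of binding in these cells.

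**Figure D1:**
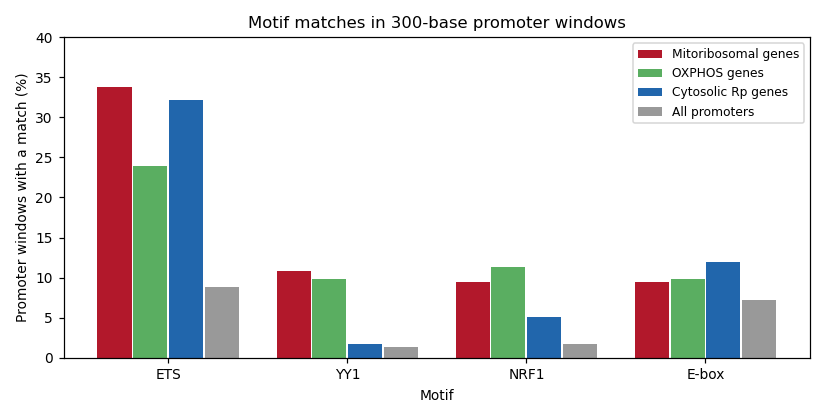
Share of 300-base promoter windows (vertical axis, percent) that hold each of 4 motifs (horizontal axis) on either strand, for mitoribosomal genes (74 windows), oxidative phosphorylation genes (71), cytosolic ribosomal protein genes (59) and all promoters (32851). The ETS bar of the mitoribosomal genes stands at 33.8% and that of all promoters at 8.86%.

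Most ETS matches lay close to the start sites. Of 29 ETS matches in member windows, 24 (82.8%) began within the 60 bases before to 50 bases after the start, a stretch of 110 of the 300 bases, against 60.8% of the 3485 ETS matches in all windows. Some ETS matches lay farther upstream, such as those of Mrpl18 at -240 and Mrpl17 at -237, counted from the start. Matches of other motifs were found upstream too, such as an NRF1 match of Mrpl10 at -135. Each annotated window of Mrpl2 held 1 E-box, at -147, -139 or -131 from its own start. To show the layout near the start, the promoters of the 3 genes with an ETS match and an NRF1 or YY1 match there are printed here. The stretch around the start of Mrps11, whose facing neighbour Mrpl46 starts 42 bases away, is printed as well. Each run covers the 120 bases before to 30 bases after the start on the plus strand, and capitals mark the matches (CCGGAAG or its complement CTTCCGG for ETS, GCGCATGCG for NRF1, AAGATGGCG or its complement CGCCATCTT for YY1).
Mrpl22 (chr11:58171544-58171693): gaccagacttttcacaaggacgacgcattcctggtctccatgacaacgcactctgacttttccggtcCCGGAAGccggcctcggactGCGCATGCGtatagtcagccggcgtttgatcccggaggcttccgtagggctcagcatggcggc
Mrps18a (chr17:46110884-46111033): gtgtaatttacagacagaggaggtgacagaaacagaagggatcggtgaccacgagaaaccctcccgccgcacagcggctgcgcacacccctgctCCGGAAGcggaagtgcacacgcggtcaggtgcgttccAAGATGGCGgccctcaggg
Mrps27 (chr13:99344666-99344815): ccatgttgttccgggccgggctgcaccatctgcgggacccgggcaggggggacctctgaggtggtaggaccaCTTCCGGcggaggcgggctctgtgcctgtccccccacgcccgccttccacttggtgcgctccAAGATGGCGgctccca
Mrps11 (chr7:78783011-78783160): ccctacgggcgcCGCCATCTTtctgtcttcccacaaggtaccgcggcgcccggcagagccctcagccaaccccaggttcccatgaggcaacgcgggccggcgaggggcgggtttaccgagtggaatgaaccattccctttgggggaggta

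Counted from the start, the ETS match of Mrpl22 began at -53 and its NRF1 match at -33. In Mrps18a and Mrps27 an ETS match upstream of the start, at -26 and -48, was followed by a YY1 match downstream of it, at 12 and 15. The YY1 match of Mrps11 began at -108, farther upstream than the start of Mrpl46, and so outside the stretch between these genes. Many member promoters also faced another gene: 26 of the 68 genes (38.2%) had the start of a gene on the opposite strand within 1000 bases upstream, against 12.2% of 27025 genes in the table. The distances ran from 8 to 935 bases. Mrps11 and Mrpl46, a small-subunit and a large-subunit gene, faced each other 42 bases apart, and they were the only members that faced another member. Among the neighbours were Ndufb5, a complex I subunit 308 bases from Mrpl47, Twnk, the mitochondrial DNA helicase, 116 bases from Mrpl43, and Sars2, the mitochondrial seryl-tRNA synthetase, 147 bases from Mrps12. These examples have mitochondrial roles, and the neighbours also included other kinds of gene, such as Tcp1, Hira, Klc4, Psma2 and Gga3.

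Nearly all members gave a signal above background. Receptors for smell, pheromones and taste were taken as silent in lymphocytes, and the 95th percentile of their 1246 probe sets on an array set its background line. These lines lay at log2 values of 6.53, 6.62, 6.54 and 6.59 on the arrays of replicates 1 to 4. Above this line on all 4 arrays were 83 of the 85 members, against 63.5% of single-symbol probe sets and 60% of all probe sets. All 77 genes passed by at least 1 probe set. A one-sided limma test of the mean above the line, adjusted by Benjamini-Hochberg over all probe sets, called 83 members, against 63.2% of single-symbol probe sets, with a largest adjusted p among those members of 0.000712. The mean values of the 83 members ran from 7.31 to 11.52 on the log2 scale. Levels of different probe sets are not ranked here, because probes differ in their response.

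The members that missed the line were second probe sets of genes seen elsewhere on the array. One probe set of Mrps33, a small-subunit protein found only in mitochondria, had log2 values of 6.24, 6.10, 6.26 and 6.28 and lay below the line on every array. The other probe set of Mrps33 had values of 9.14, 9.20, 9.41 and 9.38 and passed on all 4. One probe set of Mrpl47, a homologue of a bacterial protein at the peptide exit, had values of 6.77, 6.80, 6.74 and 6.43 and passed on replicates 1 to 3 alone. Its other probe set stood at 8.19, 8.29, 8.32 and 8.47.

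The spread of the members over the replicates was small and close to that of other genes. Their median SD was 0.126 on the log2 scale (interquartile range 0.0874 to 0.163, lowest 0.0139, highest 0.326), against 0.115 for all 13744 single-symbol probe sets above background and 0.112 for the 4021 of them with means between the quartiles of the member means. The highest value of a member was 1.21 times its lowest in the median, against 1.19 times over all probe sets. A range over 1.5-fold was found in 7 of the 83 members, against 7.77% of all probe sets. Large-subunit members had a median SD of 0.119 and small-subunit members one of 0.141. It was 0.127 for members with a bacterial homologue and 0.123 for those specific to mitochondria. Cytosolic ribosomal protein probe sets, of which 180 of 190 were above background (against 63.5% of all single-symbol probe sets), had a median SD of 0.134. For oxidative phosphorylation, with 101 of 105 above background, it was 0.122. None of these medians was tested.

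The members tended to deviate in the same direction on the same array. On the array of replicate 1, 67 of the 83 members lay below the mean of the other arrays, against 47.9% of all probe sets above background. Their median shift, the value on 1 array minus the mean of the other 3, was -0.164 on the log2 scale there, while that of all probe sets was 0.010. For 55 members replicate 1 was the lowest array, against 28.9% of all probe sets. On the array of replicate 3, 61 members lay above the mean of the others, against 52.2% of all probe sets, with a median shift of 0.102 against 0.007. Replicate 3 was the highest array for 42 members, against 23.2% of all probe sets. Replicates 2 and 4 lay near the middle, with 43 and 51 members higher (49.3% and 45.9% of all probe sets) and median shifts of 0.010 and 0.019. The lowest value on replicate 1 together with the highest on replicate 3 was seen in 32 members, against 9.36% of all probe sets. Over the 83 members the mean log2 value was 9.27, 9.39, 9.46 and 9.39 on replicates 1 to 4. These are 4 single arrays, so the shifts are descriptions with no test. Without replicate 1, the median shift on replicate 3 was 0.056, and 55 of 83 members were higher there, against 53.4% of all probe sets.

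**Figure D2:**
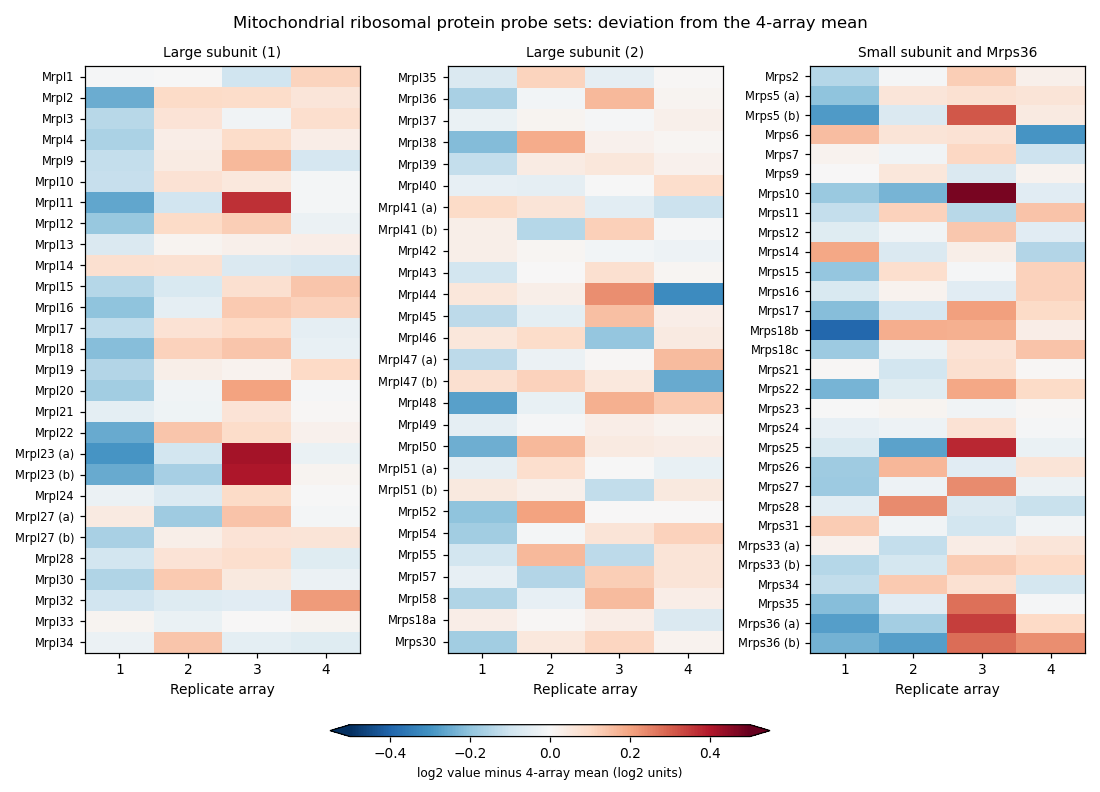
Log2 value of each of the 85 member probe sets minus its own mean over the 4 arrays (colour, log2 units), with 1 row for a probe set and 1 column for a replicate array; letters a and b mark the probe sets of a gene that has 2. The column of replicate 1 is mostly blue (67 of 83 members above background lie below the mean of the other arrays) and that of replicate 3 mostly red (61 of 83 lie above it).

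Both subunits showed the shift. On replicate 1 the median shift was -0.158 for large-subunit members, with 44 of 54 lower, and -0.164 for small-subunit members, with 21 of 27 lower. On replicate 3 the medians were 0.088 for the large and 0.104 for the small subunit, with 40 of 54 and 19 of 27 higher. Within the large subunit, homologues of bacterial proteins had a median shift of -0.180 on replicate 1 (29 of 32 lower) and proteins specific to mitochondria one of -0.060 (15 of 22 lower). In the small subunit the order was the opposite, with -0.103 for homologues (12 of 17 lower) and -0.213 for proteins specific to mitochondria (9 of 10 lower). Mrps18a and Mrps18b were classed as specific to mitochondria, although they are paralogues of Mrps18c, which was classed as a homologue. The classes hold few members, and these differences were not tested.

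The same direction was seen in other groups of genes for protein synthesis and respiration. Cytosolic ribosomal protein probe sets had median shifts of -0.111 on replicate 1 (144 of 180 lower) and 0.167 on replicate 3 (151 of 180 higher). The 190 probe sets of this group belong to only 62 genes, so many genes are counted more than once. Probe sets of oxidative phosphorylation subunits had -0.097 on replicate 1 (78 of 101 lower) and 0.083 on replicate 3 (69 of 101 higher). On replicate 2 the cytosolic group had a median shift of -0.056, against 0.010 for the mitoribosomal members.

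**Figure D3:**
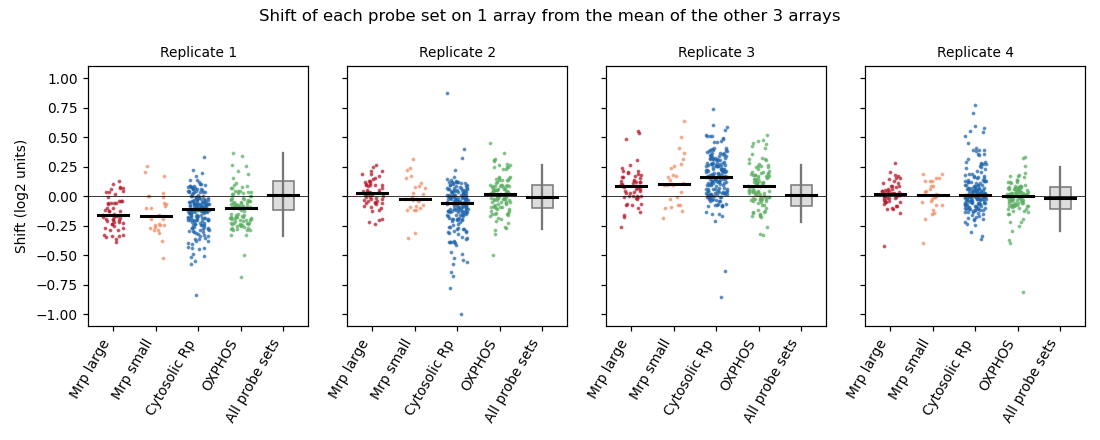
Shift of each probe set above background on 1 array from the mean of the other 3 (vertical axis, log2 units), by replicate array (panels), for large-subunit and small-subunit mitoribosomal members, cytosolic ribosomal protein genes, oxidative phosphorylation genes and all single-symbol probe sets. Points are probe sets and black bars medians; the grey box spans the quartiles of all probe sets and its line the 5th to 95th percentile. The bars of both subunits lie at -0.158 and -0.164 on replicate 1.

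Other measures also differed between the arrays. On replicate 1 the median shift was -1.31 for 7 erythroid markers (7 of 7 lower) and 0.61 for early B-cell markers (11 of 13 higher). On replicate 3 these medians were 0.41 and 0.15. They were 0.71 and -0.28 on replicate 2, and 0.32 and -0.53 on replicate 4, arrays on which the members lay near the middle. The granulocyte and monocyte markers had -0.05 on replicate 1, -0.26 on replicate 2, 0.15 on replicate 3 and 0.19 on replicate 4, and the medians of the 5 T and NK markers lay between -0.05 and -0.03. These medians cover members that moved in opposite ways: on replicate 1 the NK markers Klrb1c and Ncr1 had shifts of 1.05 and 0.82, and the T-cell markers Cd3e and Cd3g had -0.28 and -0.30. The proliferation markers had 0.03 on replicate 1 and 0.02 on replicate 3. Each listed marker gene with a single-symbol probe set passed the background line by at least 1 probe set: 13 of 13 early B-cell markers, which define the labelled cells, and equally 11 of 11 granulocyte and monocyte and 7 of 7 erythroid markers. Of all single-symbol probe sets, 63.5% passed. Mpo, of granulocyte precursors, had log2 values of 13.62, 13.85, 13.96 and 13.84, and the erythroid gene Car1 13.19, 14.02, 13.90 and 13.83, on arrays whose highest values were 14.36 to 14.62. Xist, the RNA of the inactive X chromosome, was at 5.48 on replicate 3, against 13.04 to 13.17 on the others, and the Y-linked gene Eif2s3y was at 10.05 on replicate 3, against 4.62 to 5.17. Replicate 3, on which most members were higher, was thus RNA of a male animal and the other arrays were of females. The part of cell make-up, animal or array in the shifts of the mitoribosomal genes was not tested. In RNA of a sorted population, fewer cells of a type and less RNA per cell cannot be told apart.

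The members with the largest spread were mostly high on replicate 3. Mrps10, a small-subunit homologue of bacterial S10, had log2 values of 8.14, 8.09, 8.80 and 8.26 on replicates 1 to 4, the largest SD of all members (0.33). Mrps25, a small-subunit protein specific to mitochondria, read 8.78, 8.59, 9.23 and 8.82 (SD 0.27). Mrpl23, of the large subunit, was at 9.84, 10.04, 10.55 and 10.10 on one probe set and at 10.67, 10.76, 11.33 and 10.94 on the other (SD 0.30 and 0.29). In these 3 genes replicate 3 stood above the mean of the other arrays by 0.50 to 0.63 on the log2 scale and the other arrays lay closer together. Mrps36 was at 9.07, 9.17, 9.69 and 9.44 on one probe set and at 7.07, 7.04, 7.59 and 7.54 on the other (SD 0.28 and 0.30), so that replicates 3 and 4 lay above replicates 1 and 2 on both. RefSeq lists 3 pseudogenes named after Mrps36 and 1 each named after Mrpl23, Mrpl27 and Mrpl48. Probe sets of these genes could share the transcripts of the pseudogenes.

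In Mrps18b and Mrpl44, also among the 10 probe sets with the largest SD, another array stood at the end of the range. Mrps18b read 10.37 on replicate 1, against 10.95, 10.94 and 10.80 on replicates 2 to 4. Its shift of -0.52 was the lowest of any member on that array. Mrpl44, whose protein has a ribonuclease III fold, was at 7.88, 7.86 and 8.06 on replicates 1 to 3 and at 7.51 on replicate 4. The last of these probe sets were that of Mrpl11, at 8.95, 9.12, 9.58 and 9.20, and 1 of Mrps5, at 9.38, 9.60, 9.98 and 9.71, both lowest on replicate 1 and highest on replicate 3.

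The steadiest members differed by a few hundredths of a log2 unit. Mrps23 had log2 values of 10.06, 10.08, 10.04 and 10.07 (SD 0.014), and Mrpl33 10.14, 10.09, 10.13 and 10.14 (SD 0.023). Mrpl42 stood at 8.13, 8.11, 8.08 and 8.07, Mrpl37 at 10.33, 10.38, 10.36 and 10.39, and Mrpl49 at 10.47, 10.50, 10.54 and 10.53. The members thus include genes that differed by over 1.5-fold between arrays and others that differed by less than 1.06-fold.

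**Figure D4:**
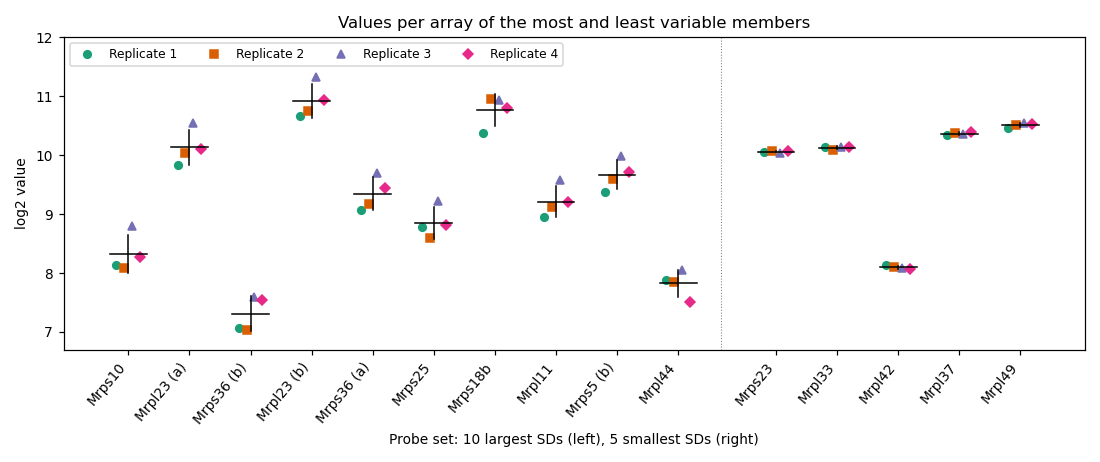
Log2 value (vertical axis) on each replicate array of the 10 member probe sets above background with the largest SD and the 5 with the smallest (horizontal axis); horizontal bars are means and vertical lines ±1 SD over the 4 arrays. In Mrps10 replicate 3 stands at 8.80 and the others between 8.09 and 8.26, while the 4 values of Mrps23 lie between 10.04 and 10.08.

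Most members with known roles followed the common direction, to unequal degrees. Mrpl41, Mrpl44 and Mrps18a were instead above the mean of the other arrays on replicate 1. The stalk of the large subunit, which recruits translation factors, contains Mrpl10, Mrpl11 and Mrpl12. Mrpl10 had values of 10.80, 10.99, 10.97 and 10.91, and Mrpl12 9.88, 10.16, 10.20 and 10.04, so that all 3 stalk genes were lowest on replicate 1. Mrpl3, a homologue of a protein near the peptidyl transferase centre, was also lowest there, at 10.23, against 10.44, 10.35 and 10.46 on replicates 2 to 4. Mrpl45, which in human mitochondria ties the ribosome to the inner membrane, read 8.35, 8.44, 8.64 and 8.52. Mrps30 read 8.07, 8.30, 8.36 and 8.27.

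In the small subunit, Mrps12, the homologue of the bacterial decoding-centre protein S12, had values of 7.66, 7.71, 7.86 and 7.67. Mrps22 was at 9.03, 9.21, 9.46 and 9.36, and Mrps34 at 8.44, 8.70, 8.64 and 8.48; mutations of either gene cause mitochondrial disease in humans. The Mrps18 paralogues occupy different places in the ribosome and had different profiles here. Mrps18c, the homologue of bacterial S18, read 9.80, 9.95, 10.05 and 10.12, lowest on replicate 1 like Mrps18b above. Mrps18a, of the large subunit, read 9.76, 9.74, 9.76 and 9.66, with a range of 0.10 over the arrays and a shift of 0.044 on replicate 1.

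A minority of members went the other way on replicate 1. Of the 16 that lay above the mean of the other arrays there, Mrps14 had the largest shift, at 8.48 on replicate 1 against 8.22, 8.32 and 8.14 on replicates 2 to 4. Mrps6 read 8.33, 8.24, 8.25 and 7.88, and Mrps31 8.96, 8.82, 8.74 and 8.82. These 3 were named after their values were seen. Mrpl41 was among them with both probe sets, at 7.71, 7.68, 7.57 and 7.51 and at 8.27, 8.09, 8.35 and 8.23.

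A single array stood apart from the others, past the 95% critical value of Dixon's ratio, in 9 of the 83 members above background, against 5.36% of all probe sets. The largest of these distances in log2 units was that of Mrpl2, a homologue of bacterial L2, at 8.64 on replicate 1 and 8.98, 8.98 and 8.95 on replicates 2 to 4. Mrps28 stood at 9.78 on replicate 2, against 9.50, 9.47 and 9.44 on replicates 1, 3 and 4. Mrpl32 was at 9.24 on replicate 4 and at 8.93, 8.97 and 8.97 on the other arrays.

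In 8 genes 2 probe sets could be set side by side, and they did not always move together. Both probe sets of Mrps36 shifted with the same sign on all 4 arrays, those of Mrpl23, Mrps5 and Mrps33 on 3, those of Mrpl41 and Mrpl51 on 2, and those of Mrpl27 and Mrpl47 on 1. In Mrpl23 the shifts of the pair differed by at most 0.10 on any array. In Mrps5, a homologue of bacterial S5, replicate 1 was lowest on both probe sets, with 9.18, 9.45, 9.46 and 9.45 on the one and 9.38, 9.60, 9.98 and 9.71 on the other. The pair of Mrpl27, a gene with a listed pseudogene, read 8.34, 8.12, 8.43 and 8.28, and 8.99, 9.19, 9.22 and 9.22, so that the array with the lowest value differed. Mrpl51 read 9.91, 10.04, 9.95 and 9.92, and 9.66, 9.64, 9.49 and 9.66. The widest gap, 0.55, was that of Mrpl47, whose weaker probe set was not above the line on replicate 4.

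**Figure D5:**
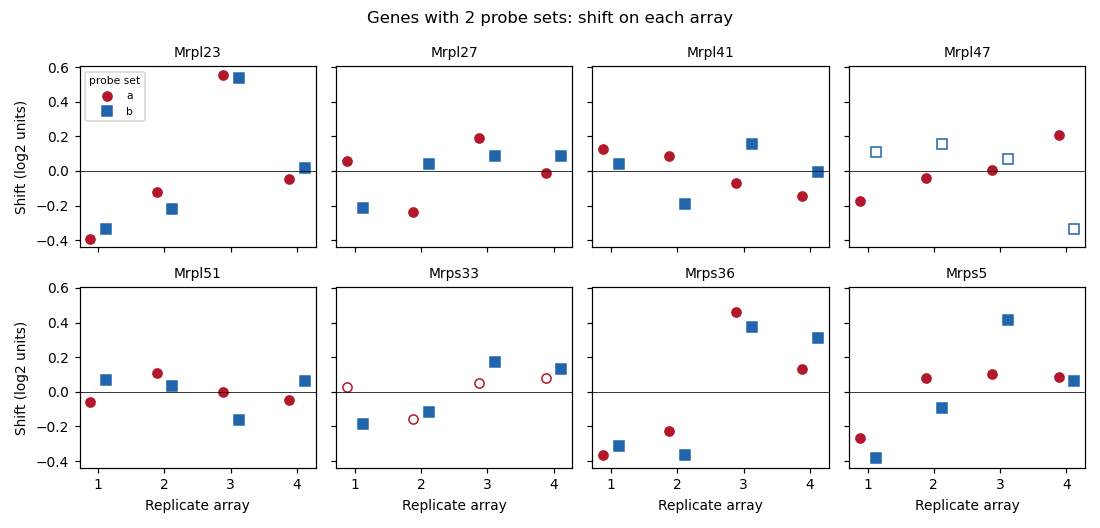
Shift on each replicate array (horizontal axis) from the mean of the other 3 arrays (vertical axis, log2 units) for the 8 genes with 2 probe sets, a (circles) and b (squares); open symbols are probe sets not above background on all arrays. The pair of Mrpl23 differs by at most 0.10 and that of Mrpl47 by up to 0.55.

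Most other genes of mitochondrial gene expression were also above background, as were 63.5% of all single-symbol probe sets. Of 9 genes listed with the mitoribosomal proteins under other symbols, Oxa1l and Lactb among them, 6 had a single-symbol probe set. All 6 were above the line, with a median shift of -0.197 on replicate 1 (5 of 6 lower). The high array of this group was replicate 2, with a median shift of 0.089 (5 of 6 higher). On replicate 3 its median shift was -0.035 (2 of 6 higher), unlike that of the members. In this group, Ptcd3 had log2 values of 9.32, 9.65, 9.72 and 9.78, Dap3 9.78, 9.99, 10.07 and 10.02, Chchd1 9.06, 9.29, 9.14 and 9.19, and Gadd45gip1 10.57, 10.69, 10.54 and 10.55. All of these but Gadd45gip1 were lowest on replicate 1. Of the translation factors, 13 of 13 probe sets were above the line, and 7 of 13 were lower on replicate 1, where their median shift was -0.031. Gfm1, an elongation factor (9.19, 9.43, 9.37 and 9.39), and Mtif2, an initiation factor (8.65, 8.82, 8.87 and 8.87), were lowest on replicate 1. Tsfm, the exchange factor of Tufm (9.10, 9.22, 9.10 and 8.98), was lowest on replicate 4. Tufm, the mitochondrial elongation factor Tu, read 10.31, 10.49, 10.35 and 10.32 on one probe set and 7.34, 6.83, 7.34 and 7.10 on the other.

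Assembly factors of the mitoribosome were above the line in 24 of 24 probe sets, against 63.5% of all single-symbol probe sets. Their median shift on replicate 1 was -0.077 (13 of 24 lower). Genes of mitochondrial transcription and RNA handling were above the line in 14 of 15, with a median shift of -0.108 on replicate 1 (11 of 14 lower). Tfam, which packages mitochondrial DNA, had values of 8.51, 8.43, 8.73 and 8.57, Polrmt, the mitochondrial RNA polymerase, 9.58, 9.63, 9.50 and 9.48, and Lrpprc, which stabilizes mitochondrial messengers, 9.71, 9.90, 9.83 and 9.82. Among regulators of nuclear genes for mitochondria, named after their values were seen, 5 of 8 probe sets above the line were lower on replicate 1, with a median shift of -0.015. Their median shift was 0.043 on replicate 2 (6 of 8 higher) and -0.073 on replicate 4 (7 of 8 lower). Gabpa, an ETS factor that binds the ETS motif described above, read 9.90, 9.77, 9.78 and 9.77, Yy1 11.03, 11.05, 11.07 and 11.00, and Nrf1 9.61, 9.43, 9.51 and 9.39.

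Median shifts lay close together in members with and without the ETS motif. The 27 probe sets of genes with a match had a median shift of -0.169 on replicate 1 (22 lower), against -0.157 for the 47 without one (36 of 47 lower). On replicate 3 the median shifts were 0.104 with a match and 0.102 without one. Among the genes whose promoters are printed above, Mrpl22 had log2 values of 7.82, 8.21, 8.16 and 8.09, Mrps27 7.95, 8.11, 8.37 and 8.11 and Mrps18a those given before. Mrps11 read 8.98, 9.21, 8.96 and 9.24, and its facing neighbour Mrpl46 8.70, 8.73, 8.44 and 8.68, so both had their lowest value on replicate 3, where most members had their highest. The 22 probe sets of facing neighbours outside the group had a median shift of -0.041 on replicate 1 (15 lower) and 0.048 on replicate 3 (16 higher).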

How the data were processed

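The authors deposited log2 intensities of 34760 probe sets from 4 Affymetrix Mouse Gene 1.0 ST arrays; RMA is named in their methods for correcting background and normalizing. The sources used here do not say which arrays were normalized together, nor the threshold of a filter on low expression. RMA evens out differences of total signal between arrays, so a shift common to all genes cannot be seen. The deposited log2 values were used unchanged, and 0 columns were left without a sample. Symbols came from the platform annotation (1321 probe sets with several and 11799 with none were not named), and all 77 member genes matched RefSeq by identifier. Precision is limited by the number of arrays, and the labels do not say how many mice the arrays stand for. Sex-linked RNA sets replicate 3 apart from the others, so the spread over the 4 arrays includes a difference between animals. Among replicates 1, 2 and 4 the source of the spread was not tested, and it may be technical in part. Cell-type markers differed between these arrays too, with erythroid median shifts of -1.31, 0.71 and 0.32.

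Members, lists and alternatives were chosen with earlier results of these data known. Named genes were the 10 members with the largest and 5 with the smallest SD, those with 1 array apart, those not above the line, genes with several probe sets, and fixed lists of known roles and of mitochondrial translation genes (Ict1 and Mrp63 under Mrpl58 and Mrpl57). The limma test was checked on simulated data. Motifs were counted on both strands. Alternatives were other background lines, quantile normalization, median centring, cyclic loess, no filter, 1 probe set a gene, probe sets with several symbols, and leaving out each array. Values were computed with limma 3.58.1 in R 4.3.3 and with pandas 2.3.3 and numpy 2.4.6 in Python 3.11.15, and drawn with matplotlib 3.10.9.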

Additional observations from a re-analysis of the deposited data

Results flagged for a closer look

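In 10 member probe sets 1 array lay far from the other 3; chance flags about 1 in 20 groups of 4 values. Of these, 4 stood apart on replicate 1 and 2 each on replicates 2, 3 and 4. On the array of replicate 1, Mrpl13 was lower at 9.05 (mean of the other arrays 9.15), Mrpl2 at 8.64 (8.97), a probe set of Mrpl27 at 8.99 (9.21) and a probe set of Mrps5 at 9.18 (9.45). On replicate 2, Mrpl34 was higher at 11.17 (10.98) and Mrps28 at 9.78 (9.47). On replicate 3, Mrpl46 was lower at 8.44 (8.70) and a probe set of Mrpl51 at 9.49 (9.65). On replicate 4, Mrpl32 was higher at 9.24 (8.96), and the probe set of Mrpl47 that lay near the background line was lower at 6.43 (6.77).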

How the results depend on the processing

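Every summary kept its direction where it had one, within the spread between the arrays, under the alternatives run. The count of members above background was 82 to 84 under the other lines and rules and 83 to 84 when each array was left out. The median shift on replicate 1 was -0.198 to -0.187 under the other normalizations, with median shifts of all probe sets between -0.024 and 0.022, and -0.167 to -0.146 when each other array was left out. On replicate 3 it was 0.093 to 0.116 and 0.056 to 0.115. The value of 0.056 came without replicate 1, whose low values then left the mean of the other arrays. For the same reason the small shifts on replicates 2 and 4 turned to -0.015 and -0.028 without replicate 1, with ranges of -0.015 to 0.041 and -0.028 to 0.071 over the left-out arrays; they have no settled direction. The median SD of the members was 0.092 to 0.133 when each array was left out. Without replicate 1 or 3 it was below that of all probe sets (0.092 against 0.096 and 0.111 against 0.113), so its being above rests on single arrays. From 6 to 11 members had 1 array apart. In alternatives chosen after seeing the data, genes with 1 probe set only gave shifts of -0.158 on replicate 1 and 0.095 on replicate 3, and 55 members were higher on replicate 3 without replicate 1. No paired analysis was possible because the labels give a single group.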
